A study of Mus musculus with 7 samples.

Results

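The genes described here are 10 genes known as targets of both the androgen and the glucocorticoid receptor: Fkbp5, Zbtb16, Tsc22d3, Sgk1, Klf9, Errfi1, Cebpb, Cebpd, Mt1 and Mt2. They were taken by gene symbol, which found 13 probe sets out of 12422 on the array. Of the 10 genes, 9 had a probe set above the filter on low signal, out of 6326 genes that passed it. Uteri of ovariectomized C57BL/6 mice were measured on Affymetrix U74Av2 arrays, with 1 array of pooled RNA for each group and no replicates. The groups were mice killed 1, 3, 6, 12, 18 or 24 h after a single injection under the skin of 0.1 mg dihydrotestosterone (DHT), and mice killed 24 h after vehicle alone. All groups were females without ovaries, operated on 7 days before death and aged 10 to 11 weeks per the labels, which also name 4 weeks of acclimation after arrival at that age. The protocols name 10 mice without giving the number in each pool. The vehicle array matches the DHT arrays in time at 24 h only, so at 1 to 18 h the effects of DHT and of the time since injection cannot be told apart.

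The androgen and glucocorticoid receptors are ligand-bound transcription factors of the same family. Both bind as dimers to an inverted repeat in DNA, with a short arm on each side of a spacer, and many genes carry sites that either receptor can use. DHT is an androgen that the body does not turn into estrogen. In the uterus, androgens are known to make the tissue grow, and glucocorticoids oppose some of the actions of estrogen. The 10 genes fall into roles: a receptor co-chaperone (Fkbp5), transcription factors (Zbtb16, Klf9, Cebpb and Cebpd), brakes and kinases in the cytoplasm (Errfi1, Sgk1, Tsc22d3) and zinc-binding metallothioneins (Mt1, Mt2).

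Promoter windows from RefSeq (GRCm38.p6), from 250 bases before to 50 bases after each annotated start, were searched on both strands for the full palindrome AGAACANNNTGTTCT, for its single arm TGTTCT, and for the core of metal response elements, TGCACNC or TGCGCNC. The table held 16 windows for 8 of the 10 genes. The palindrome was in 3 of all 32851 windows (0.00913 percent), and 1 of these 3 was a window of Sgk1, chr10:21993640-21993939 on the plus strand. It is shown because it is the only window of these genes with the full palindrome, whose letters are in capitals and include 2 matches of the single arm. The single arm was in 19.0 percent of all windows, and among these genes in windows of Sgk1 and Tsc22d3. The windows of Mt1 (chr8:94178839-94179138, plus strand) and Mt2 (chr8:94172368-94172667, plus strand) are shown for their metal response cores, in capitals, of which Mt1 had 3 and Mt2 had 4. At least 3 cores were found in 1.97 percent of all windows and at least 1 in 25.7 percent.
Sgk1: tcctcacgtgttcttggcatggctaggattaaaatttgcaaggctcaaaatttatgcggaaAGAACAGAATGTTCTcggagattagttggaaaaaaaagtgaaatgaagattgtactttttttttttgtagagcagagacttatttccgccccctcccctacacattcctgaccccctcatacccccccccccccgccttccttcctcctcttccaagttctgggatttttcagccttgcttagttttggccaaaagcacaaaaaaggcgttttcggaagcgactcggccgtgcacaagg
Mt1: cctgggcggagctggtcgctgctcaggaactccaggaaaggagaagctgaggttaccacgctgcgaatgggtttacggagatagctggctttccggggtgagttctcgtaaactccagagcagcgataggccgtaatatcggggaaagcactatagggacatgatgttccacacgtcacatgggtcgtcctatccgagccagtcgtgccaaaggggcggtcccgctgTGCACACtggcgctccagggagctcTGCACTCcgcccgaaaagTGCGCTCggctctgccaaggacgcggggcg
Mt2: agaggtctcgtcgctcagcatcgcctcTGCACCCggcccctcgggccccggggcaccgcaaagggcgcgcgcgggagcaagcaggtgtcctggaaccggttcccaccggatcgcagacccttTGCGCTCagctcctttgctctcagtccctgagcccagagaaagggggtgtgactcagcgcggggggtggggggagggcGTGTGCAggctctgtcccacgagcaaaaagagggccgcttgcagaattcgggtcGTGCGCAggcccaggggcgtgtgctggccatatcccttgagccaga
No window of Fkbp5, Klf9, Cebpb or Errfi1 held the palindrome or its single arm, which says only that these letters are not in these windows.

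**Figure D1:**
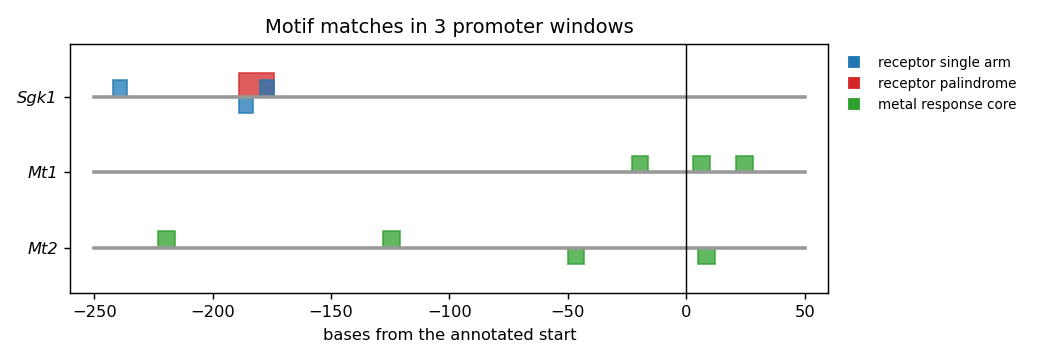
Motif matches in the Sgk1, Mt1 and Mt2 windows shown in letters in the text, by distance in bases from the annotated start (vertical line). Boxes above a line are matches on the strand of the gene and boxes below it on the other strand. The Sgk1 palindrome lies at positions -189 to -175 and covers 2 of the 3 single arms of its window, and the metal response cores of Mt1 and Mt2 (3 and 4) lie on both sides of their starts.

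Values are signals on the authors' linear scale, which is the same for all 7 arrays. Before taking log2 ratios to vehicle, low signals were set to a floor of 145.9 (the 40th percentile over all arrays). A gene with several probe sets is given by its brightest, and the others are named. At 1 h, 0 of the 9 genes were at least 2-fold above vehicle, against 0.474 percent of all 6326 genes. The 3 h array had 3 such genes (1.23 percent of all genes). The 6 h array had 2 (background 1.28 percent), the 12 h array 2 (background 1.83 percent), the 18 h array 2 (background 1.31 percent) and the 24 h array 2 (background 0.933 percent). The 3 genes at 3 h were Fkbp5, Zbtb16 and Errfi1, and the 2 genes at each later time were Fkbp5 and Zbtb16. None of the 9 was at least 2-fold lower at any time, against 3.34 percent of all genes. Above vehicle at all 6 times were 6 of the 9 (Fkbp5, Zbtb16, Sgk1, Errfi1, Cebpd and Mt2), against 13.5 percent of all genes. For Errfi1 this holds on the probe set used, and its second probe set was below vehicle at 24 h. Mt1 was the only 1 of the 9 below vehicle at all 6 times, against 16.3 percent of all genes. The 6 ratios of a gene share the 1 vehicle array, so the same sign at all 6 times is not 6 separate observations. The median log2 ratio of the 9 genes was 0.28, 0.67, 0.59, 0.31, 0.31 and 0.21 at 1, 3, 6, 12, 18 and 24 h, and the median of all genes was 0.00 at each time. These genes were chosen with earlier results of these arrays known, so the counts describe them and test nothing.

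**Figure D2:**
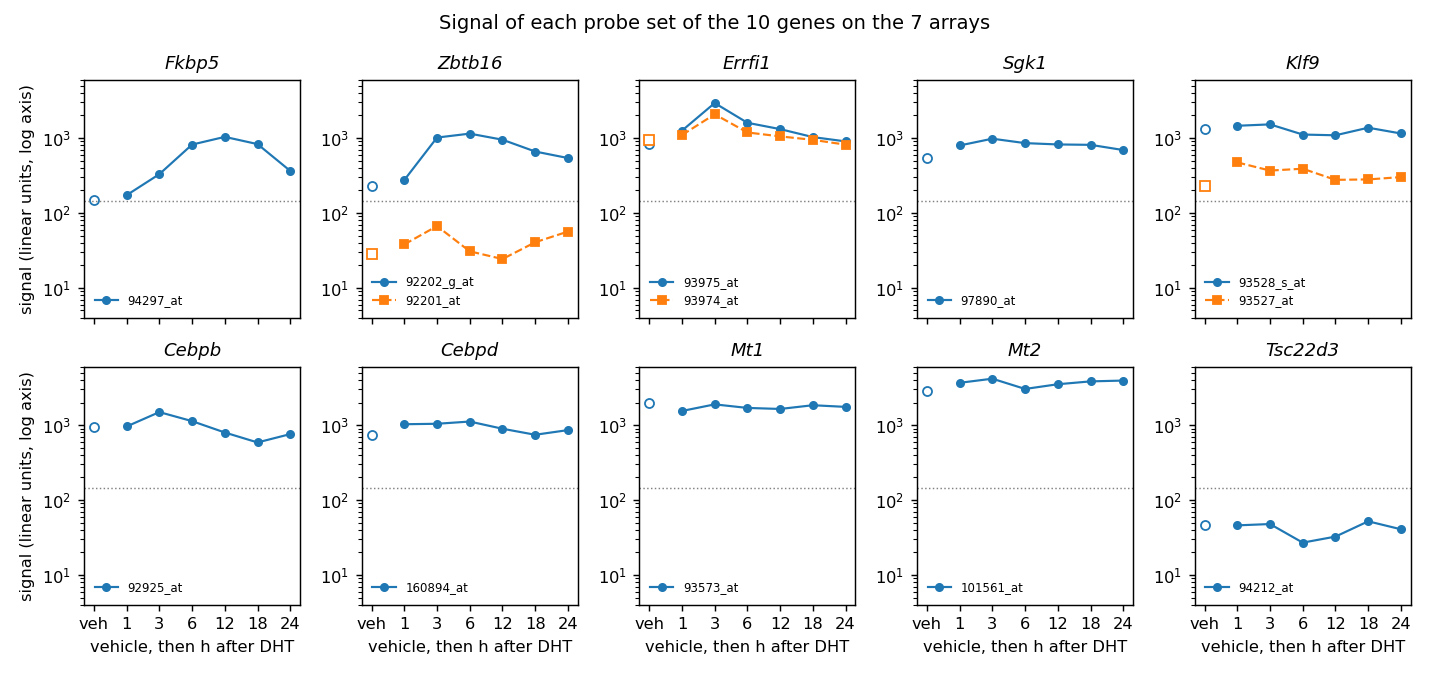
Signal of every probe set of the 10 genes (log axis) on the vehicle array (open symbols) and at 1 to 24 h of DHT (filled symbols, equal steps for unequal times), with the floor of 145.9 dotted. Each point is 1 array. Fkbp5 and the brighter Zbtb16 probe set lie well above vehicle from 3 h on, the dimmer Zbtb16 probe set is under the floor on all 7 arrays, Errfi1 has a peak at 3 h on both of its probe sets, and Tsc22d3 lies under the floor on all 7 arrays.

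Fkbp5 encodes the Hsp90 co-chaperone FKBP51, which lowers the hormone affinity of the glucocorticoid receptor and is induced by it, as a feedback. Its signal was 150.5 on vehicle and 172.9, 329.8, 818.3, 1036.9, 830.2 and 364.4 at 1, 3, 6, 12, 18 and 24 h of DHT. The vehicle signal is barely over the floor, and all 6 DHT arrays lay above it, with 6, 12 and 18 h the highest. At 12 h the signal was 6.89-fold that of vehicle. Ranked from the highest ratio to vehicle among the 6326 genes, Fkbp5 stood at place 1306 at 1 h and 52 at 3 h. Its place was then 1, 3, 2 and 20 for the 4 later times in order. At 24 h, the only time with a matched control, the signal was 2.42-fold that of vehicle. With the floor at the 60th percentile, above the vehicle and 3 h signals, the log2 ratio was 1.53 at 12 h and 0.02 at 24 h, against 2.78 and 1.28 with the lower floor.

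Zbtb16 encodes PLZF, a zinc finger repressor of transcription. On the brighter of its probe sets its signal was 226.8 on vehicle and 275.3, 1015.1, 1145.6, 950.2, 660.9 and 541.2 at 1, 3, 6, 12, 18 and 24 h of DHT. All 6 DHT arrays were above vehicle, the 1 h array by little, and the highest was 6 h at 5.05-fold. At 3 h its signal was 4.48-fold that of vehicle, and that of Fkbp5 2.19-fold. At 24 h it stood 2.39-fold above the time-matched vehicle. Its place among all genes was 4, 2, 5, 11 and 23 for the times from 3 h on. The other Zbtb16 probe set had signals of 24.3 to 66.9 on the 7 arrays, all under the floor, so the course rests on 1 probe set.

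Errfi1 encodes MIG6, an inhibitor that binds the kinase domain of the EGF receptor, and in the mouse uterus it is a progesterone receptor target that restrains epithelial growth. On the probe set used for the gene its signal was 831.1 on vehicle and 1255.5, 2931.8, 1598.0, 1316.0, 1030.1 and 902.2 at 1, 3, 6, 12, 18 and 24 h of DHT. The 3 h array stood out at 3.53-fold vehicle, rank 9 of all genes, and the 24 h array was close to vehicle. The second probe set had 929.0 on vehicle and 1096.4, 2076.2, 1187.6, 1052.3, 946.5 and 816.3 at the same times. Both probe sets were highest at 3 h, but the log2 ratio there was 1.82 on the one used and 1.16 on the second, and the one used gave the higher ratio at all 6 times. At 24 h, the time-matched comparison, the direction depends on the probe set: the log2 ratio was 0.12 on the one used, -0.19 on the second and -0.03 as the median over both. The 3 h array differed from the rest of the series: it had 12 probe sets at least 2-fold from every other array, against 4 to 7 on the other 6 arrays. On that array, 4 of 13 immediate early genes were at least 2-fold above vehicle (1.23 percent of all genes), with a list median of 0.62 on the log2 scale. Their part in the Errfi1 value was not tested.

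Sgk1 encodes a kinase named for its induction by serum and glucocorticoids, which phosphorylates the ubiquitin ligase NEDD4L and so keeps sodium channels at the cell surface. Its signal was 545.2 on vehicle and 796.1, 980.2, 855.7, 821.6, 811.6 and 691.7 at 1, 3, 6, 12, 18 and 24 h of DHT. All 6 DHT arrays lay above vehicle within a narrow band, highest at 3 h and lowest at 24 h. The ratio to vehicle was 1.46-fold at 1 h and highest at 3 h, with 1.80-fold, and the time-matched 24 h array was 1.27-fold. At 1 h Sgk1 ranked 235 of 6326 genes, ahead of Zbtb16 at 892 and Fkbp5 at 1306, and at 24 h it ranked 942.

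Tsc22d3 encodes GILZ, a leucine zipper protein that binds and restrains NF-kappaB and AP-1. Its only probe set had signals of 46.9 on vehicle and 45.9, 47.8, 27.0, 32.5, 52.0 and 40.7 at 1, 3, 6, 12, 18 and 24 h of DHT. All 7 lie under the floor, so no level, ratio or test is given for this gene.

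Klf9 encodes a zinc finger factor that works with the progesterone receptor in the mouse uterus. Its brighter probe set had 1316.6 on vehicle and 1458.2, 1522.1, 1113.4, 1088.7, 1373.9 and 1150.3 at 1, 3, 6, 12, 18 and 24 h of DHT, with 3 arrays above vehicle and 3 below. The dimmer probe set had 229.2 on vehicle and 473.0, 368.2, 389.7, 276.8, 280.5 and 301.2 at the same times, with all 6 above vehicle and the highest, 2.06-fold, at 1 h. The log2 ratios of the probe sets differed by 0.23 (18 h) to 1.01 (6 h), with the dimmer one the higher at all 6 times. The direction for Klf9 at 6, 12 and 24 h therefore depends on the probe set.

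Cebpb and Cebpd encode leucine zipper factors of the C/EBP family, and Cebpb is needed for decidualization in the mouse uterus. The Cebpb signal was 938.0 on vehicle and 957.8, 1490.3, 1128.6, 796.1, 586.5 and 757.8 at 1, 3, 6, 12, 18 and 24 h of DHT. The 3 arrays of 1 to 6 h were above vehicle, the 1 h array by very little, and the 3 arrays of 12 to 24 h were below it, with log2 ratios of 0.67 at 3 h and -0.68 at 18 h. Cebpd had 739.0 on vehicle and 1026.3, 1040.9, 1114.7, 893.6, 742.7 and 856.9 at the same times. Its 1, 3 and 6 h arrays lay close together at 1.39-fold to 1.51-fold, and at 18 h it was at the vehicle level. Both genes were thus lower on each of the late arrays than on their own 3 and 6 h arrays.

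Mt1 and Mt2 encode small cysteine-rich proteins that bind zinc and copper, are induced by metals through MTF1 and, in the mouse, by glucocorticoids. The Mt2 signal was 2832.0 on vehicle and 3664.2, 4158.5, 3034.6, 3506.7, 3828.8 and 3925.4 at 1, 3, 6, 12, 18 and 24 h of DHT. The Mt1 signal was 1966.7 on vehicle and 1542.2, 1889.2, 1693.8, 1641.0, 1840.5 and 1748.9 at the same times. Mt2 was above vehicle and Mt1 below it on all 6 arrays, but no array was past 1.5-fold in either direction. The log2 ratio of Mt2 was higher than that of Mt1 by 0.32 (6 h) to 0.72 (1 h) on all 6 arrays. All of these ratios share the 1 vehicle array, so the 6 arrays do not give the direction 6 separate times. The windows of both genes shown above hold metal response cores.

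**Figure D3:**
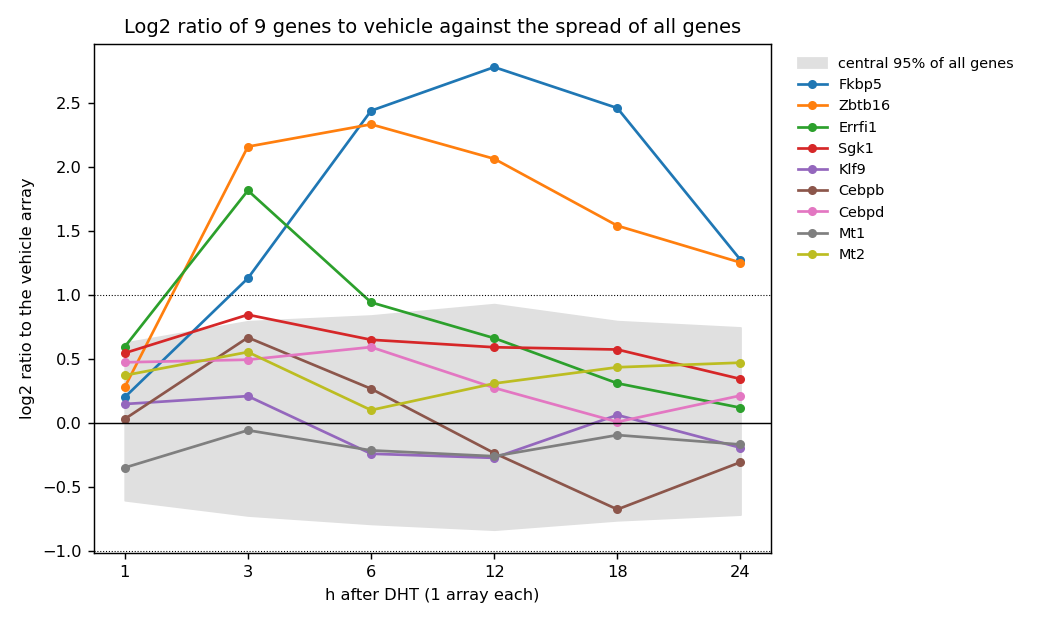
Log2 ratio to the vehicle array (1 array per time, equal steps for unequal times) of the 9 genes above the filter, by their brightest probe sets, with 2-fold lines dotted and the central 95 percent of all 6326 genes shaded. Fkbp5 and Zbtb16 lie above the shaded range from 3 h to 24 h, Errfi1 at 3 and 6 h and Sgk1 at 3 h, and Mt1, Mt2, Cebpb, Cebpd and Klf9 stay inside it at all 6 times.

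To give differences an error, times were grouped by stage: 1, 3 and 6 h as early and 12, 18 and 24 h as late, with 3 arrays in each. limma tested them over all 8421 probe sets above the filter, with Benjamini-Hochberg adjustment. No member passed at an adjusted p of 0.05 in any of the 3 comparisons. Among all probe sets, 0.273 percent passed for early against vehicle, 0.309 percent for late against vehicle and 0 percent for late against early. Those that passed, 23 and 26, were all lower after DHT. Without the variance trend 0 passed in each comparison, and the part of the signal floor in these calls was not tested. Arrays of different times stood in for replicates, so a gene's own time course adds to its SE, and the single vehicle array is taken to have the same spread. Among the 11 probe sets of these genes in the fit, an unadjusted p under 0.05 was reached by 3 for early against vehicle (6.33 percent of all probe sets), 1 for late against vehicle (11.7 percent) and 3 for late against early (10.2 percent).

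Fkbp5 had the widest late difference, 2.17 ± 0.95 (SE, log2) above vehicle (adjusted p = 0.462 in limma), and Zbtb16 stood 1.62 ± 0.84 above it (adjusted p = 0.516 in limma). In the early arrays Zbtb16 was 1.59 ± 0.84 and Fkbp5 1.26 ± 0.95 above vehicle on the log2 scale (limma adjusted p = 0.893 and 0.933). With single early arrays left out, the early difference of Zbtb16 was 1.22 ± 0.84 without 6 h (limma adjusted p = 0.958) and 2.25 ± 0.36 without 1 h (limma adjusted p = 0.240). That of Fkbp5 was 0.67 ± 0.76 without 6 h (limma adjusted p = 0.959) and 1.79 ± 0.84 without 1 h (limma adjusted p = 0.633). Sgk1 had smaller differences with smaller errors, 0.68 ± 0.17 early (limma adjusted p = 0.484) and 0.50 ± 0.17 late (limma adjusted p = 0.358). Errfi1 was 1.12 ± 0.48 above vehicle in the early arrays (limma adjusted p = 0.811), and 0.77 ± 0.28 without the 3 h array (limma adjusted p = 0.745). Cebpd was 0.52 ± 0.14 above vehicle early and lower late than early by -0.36 ± 0.10 (limma adjusted p = 0.534 and 0.337). The late minus early difference of Cebpb was -0.73 ± 0.20 (limma adjusted p = 0.346). On its dimmer probe set Klf9 differed by 0.83 ± 0.19 early and by -0.51 ± 0.14 late against early (limma adjusted p = 0.406 and 0.333), and on its brighter one by 0.04 ± 0.22 and -0.17 ± 0.16. Mt2 was 0.40 ± 0.18 above vehicle late and Mt1 differed by -0.18 ± 0.13 (limma adjusted p = 0.469 and 0.650).

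**Figure D4:**
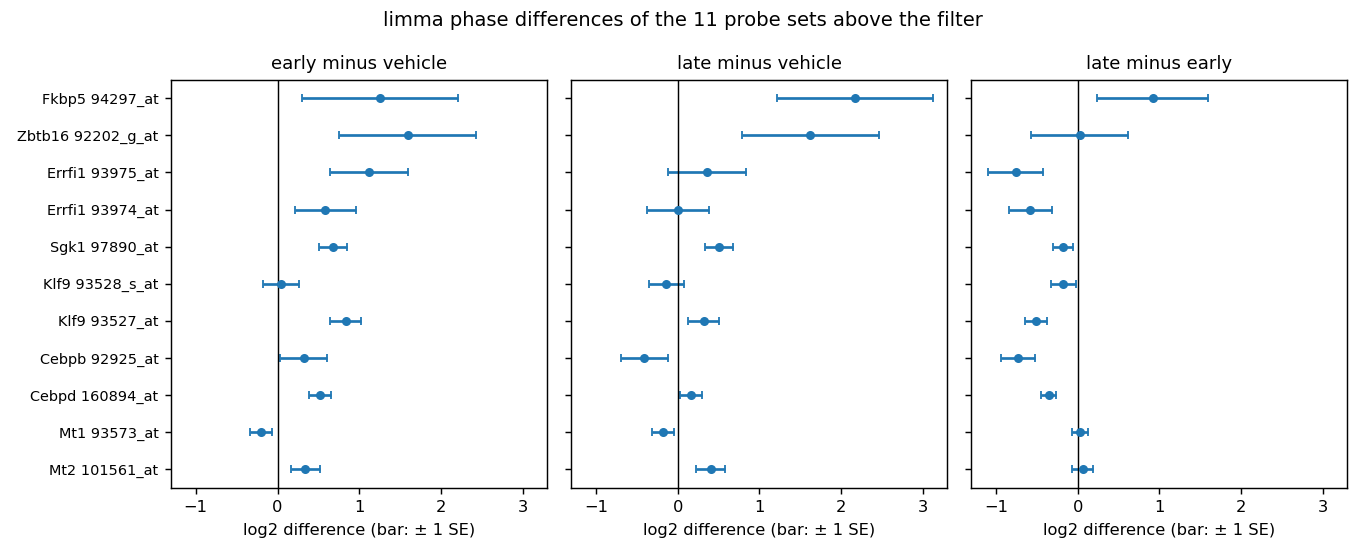
Log2 differences from limma (points, with bars of 1 SE) for early (1, 3 and 6 h, 3 arrays) minus vehicle (1 array), late (12, 18 and 24 h, 3 arrays) minus vehicle and late minus early, for the 11 probe sets above the filter. Fkbp5 and Zbtb16 have the largest differences from vehicle and the widest bars there (0.95 and 0.84), and Sgk1 has narrower bars of 0.17. A bar of 1 SE that stays clear of 0, as for these 3 genes against vehicle, is not a test, and no probe set shown passed in limma.

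The 3 genes with the widest range over the 7 arrays, Fkbp5, Zbtb16 and Errfi1, were set against the 754 other genes with a range of at least 1 on the log2 scale. Closest to Fkbp5 were Cse1l, a nuclear export receptor gene (Pearson r = 0.978 over 7 arrays), Rab26os (0.975) and Mthfd2, a mitochondrial folate enzyme gene (0.965). Closest to Zbtb16 were the ribosome assembly genes Nop56 (0.972) and Tsr1 (0.968) and Aldh1a2, which makes retinoic acid (0.952). Closest to Errfi1 were Jmjd6 (0.975), Ramp3, a subunit of adrenomedullin receptors (0.971), and the immediate early gene Nr4a1 (0.945). All points share the same 7 arrays, and these correlations are descriptions. Against the other 8 of the 9 genes above the filter, r over the 7 arrays ranged from -0.573 (Klf9) to 0.828 (Zbtb16) for Fkbp5. It ranged from -0.354 (Klf9) to 0.828 (Fkbp5) for Zbtb16 and from -0.021 (Mt1) to 0.838 (Sgk1) for Errfi1.

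Other genes of the same pathways are given as lists. Of 20 other glucocorticoid receptor targets, 18 passed the filter, and their median log2 ratio lay between -0.09 and 0.29 over the 6 times. Of these, 1 was at least 2-fold higher, at 3 h only (1.23 percent of all genes at 3 h). At least 2-fold lower at some time were 4 (3.34 percent of all genes). Of 18 other androgen receptor targets 10 passed, with medians between -0.31 and 0.12. In this list 1 was at least 2-fold higher, at 1 h only (0.474 percent of all genes at 1 h). At least 2-fold lower at some time were 2 (3.34 percent of all genes). In both lists the higher genes were looked for over all 6 times, but the share beside them is for 1 time. Those shares are therefore not a like comparison. Sat1, which starts polyamine breakdown, was the only one of these 2 lists past 2-fold at 2 or more times, with 2227.0 on vehicle, 1004.7 at 6 h and 1002.3 at 12 h. No gene of the 8 lists examined, 69 above the filter in all, passed in limma in any of the 3 comparisons.

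Genes that set the supply of receptor and ligand were looked at next. The glucocorticoid receptor gene Nr3c1 was under the floor on 6 of 7 arrays, including vehicle, and had 154.9 at 1 h. The progesterone receptor gene Pgr had 357.1 on vehicle, 535.9 at 3 h and 224.7 at 24 h of DHT, and the estrogen receptor gene Esr1 stayed between 457.4 and 566.8 on all 7 arrays. Hsd11b2, whose enzyme inactivates corticosterone, had 325.9 on vehicle and 172.9, 644.6, 1035.6, 815.4, 608.3 and 708.8 at 1, 3, 6, 12, 18 and 24 h of DHT. It was below vehicle at 1 h and above it at the other 5 times, which include the time-matched 24 h, with log2 ratios of -0.91 at 1 h and 1.67 at 6 h. Its late difference from vehicle was 1.11 ± 0.94 (limma adjusted p = 0.684).

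The 6 metal and oxidant response genes beside Mt1 and Mt2 had medians of -0.05 to 0.19 on the log2 scale, and none was past 2-fold. Of the 6 other C/EBP family and partner genes, with medians of -0.29 to -0.01, none was at least 2-fold higher at any time. At least 2-fold lower at some time was 1 (3.34 percent of all genes). Of the 4 ErbB receptor and ligand genes beside Errfi1, none was past 2-fold. Of 8 genes listed as SGK substrates, partners and sodium channels, 4 passed the filter. The sodium channel genes of this list were named by no probe set of 1 gene, so nothing is shown for them. Among the 4 was Foxo3, a transcription factor that the SGK kinase family holds inactive. Foxo3 had 2520.9 on vehicle and 2561.3, 2222.3, 1092.7, 1110.9, 1481.1 and 1231.5 at 1, 3, 6, 12, 18 and 24 h of DHT. It was at vehicle level at 1 h and lower at the 4 times from 6 h on (late difference from vehicle -0.99 ± 0.48 on the log2 scale, limma adjusted p = 0.490).

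Array medians lay between 227.4 and 237.0, and the ratio of 3 prime to 5 prime Gapdh control signals between 0.83 and 0.89. All 6 uterine markers (Esr1, Pgr, Hoxa10, Hoxa11, Hoxd10 and Wnt7a) were above the floor on all arrays, and all 4 markers of kidney and liver were under it. In pooled whole tissue, fewer cells of a type and less RNA per cell cannot be told apart. The summed signal of 5 smooth muscle markers was 24068.6 to 41029.2 on the DHT arrays and 26086.6 on vehicle, and that of 5 stromal markers, with Vim under the floor, was 36663.1 to 57616.8 on the DHT arrays and 36003.0 on vehicle. Both sums were highest at 24 h. The summed signal of the 4 adipocyte markers named here, all above the floor on at least 1 array, was 2827.0 to 4581.0 on the DHT arrays and 4006.5 on vehicle, and it was lowest at 18 h. For the 5 epithelial markers, all above the floor, it was 7268.9 to 9367.3 on the DHT arrays and 8382.5 on vehicle. For the 5 leukocyte markers it was 3806.5 to 4774.1 on the DHT arrays and 4338.8 on vehicle, with Ptprc and Itgam under the floor on all arrays. For 4 endothelial markers it was 1421.4 to 1759.2 on the DHT arrays and 1748.8 on vehicle. For 2 blood markers, with Alas2 under the floor on all arrays, it was 1610.1 to 2374.5 on the DHT arrays and 1765.2 on vehicle. The part of these cell types in the values of the 10 genes was not tested.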

How the data were processed

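Signal intensity was deposited by the authors on a linear scale, with MAS5 named in the submitters' processing notes and no version given. Their trimmed mean was 499.9 on all 7 arrays, and this scaling was kept. Symbols came from the platform's annotation. Of 12422 probe sets that are not controls, 10833 named 1 gene, 396 several and 1193 none.

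Signals were raised to a floor at the 40th percentile of all values (145.9) and put on the log2 scale. Probe sets with a mean above the floor were kept, 8421 in all, and a gene was given by its brightest probe set naming 1 gene. limma 3.58.1 in R 4.3.3 fitted vehicle, early and late arrays with a variance trend and 4 residual degrees of freedom, two-sided, with Benjamini-Hochberg adjustment at 0.05. The fit was also run on simulated data in which only late arrays were shifted. That run does not check the comparisons with the single vehicle array. Single times have 1 array and no test, and the number of arrays limits precision. P-values measure only the spread between these arrays.

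The named genes are the 10 members, the steroid receptors, among 8 pathway lists up to 4 genes each at least 2-fold from vehicle at 2 or more times, and the 3 closest genes to each of the 3 members of widest range. The members, lists and rules were chosen with earlier results of these data known. The titles' times were followed, although the design text gives 0.5 h and no 18 h.

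Alternatives were other floors, quantile normalization, the median over probe sets, other fold thresholds, no filter, no variance trend and single arrays left out.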

Additional observations from a re-analysis of the deposited data

Results flagged for a closer look

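Cebpb was on opposite sides of vehicle in the late and early arrays: the 3 late arrays (12, 18 and 24 h) were all below vehicle and the 3 early arrays (1, 3 and 6 h) all above it. The 1 h array was above it by very little (log2 ratio 0.03), so the pattern rests on a small difference there. The late minus early difference was -0.73 ± 0.20 (SE, log2) and did not pass in limma (adjusted p = 0.346). Without single arrays it lay between -0.87 and -0.56. Of all 6326 genes, 127 (2.01 percent) had such a pattern in either direction.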

How the results depend on the processing

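At 1.5-fold, the 1 h array had 1 gene above vehicle (3.18 percent of all genes), the 3 h array 5 (5.09 percent), the 6 h array 5 (6.88 percent) and the 12 h array 4 (8.55 percent), and Cebpb was the 1 gene below it on the 18 h array (5.42 percent). At 3-fold, 1 was above vehicle at 18 h (0.142 percent) and 0 at 24 h (0.126 percent). With the floor at the 60th percentile, the count at 2-fold was 1 at 18 h (0.805 percent of 4596 genes) and 0 at 24 h (0.413 percent), as that floor lies above the vehicle signals of Fkbp5 and Zbtb16. The other 100 recomputed counts equalled those reported or lay within 1.5 times of them. Among them were all of those with quantile normalization, a floor at the 20th percentile or the median over probe sets. Many of the 100 were 0 against 0: all limma counts, the other counts below vehicle and the other counts above vehicle at 1 h. A count of 0 that stays 0 says little about stability. The number of members called in limma was 0 under every alternative, from 0 to 0 with single arrays left out, and the lowest adjusted p of a member ranged from 0.240 to 0.645 over the settings and comparisons. Over all probe sets the calls varied from 0 (no variance trend) to 121 (no filter) for early against vehicle, and from 0 to 137 for late against vehicle. Signs changed on the log2 scale as follows, with no member called in any case. With the median over probe sets, the ratio to vehicle of Klf9 was 0.26 at 6 h and 0.10 at 24 h, against -0.24 and -0.19 on its brightest probe set, and that of Errfi1 was -0.03 at 24 h, against 0.12. Klf9 late minus vehicle was 0.0917 with the median over probe sets, and early minus vehicle ranged from -0.0472 to 0.18 with single arrays left out (negative without 1 h or 3 h). Zbtb16 late minus early was -0.0990 with the floor at the 60th percentile, and with single arrays left out it ranged from -0.6278 (without 1 h) to 0.4007 and was also negative without 12 h. The same difference ranged from -0.0386 to 0.1077 for Mt1 (negative without 1 h or 18 h) and from -0.0582 to 0.1691 for Mt2 (negative without 6 h). The causes were not tested. No paired analysis was possible because each group has 1 array.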
